A study of Mus musculus with 8 samples.

Results

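TRBV14 is the V segment of the T-cell receptor (TCR) beta chain that antibody work in mice calls V beta 13. Its receptors were defined by the V call of the deposited beta contigs, and 249 of the 2920 cells with a beta chain (54 of 1649 clonotypes) carried one. TRBV14 was looked at because of its high share of cells in 1 library, so the share of cells and the clone sizes below are given as a description and without a test.

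TCR sequences were read from single brain immune cells of B6 mice 2 months after traumatic brain injury (TBI) by controlled cortical impact, in 4 libraries with 1 library per group. YTBI_Isotype and YTBI_aCD49d came from mice injured young, at 13 to 15 weeks, and ATBI_Isotype and ATBI_aCD49d from mice injured aged, at 80 to 82 weeks. All 4 groups were injured and were injected every 2 weeks, the isotype groups with control antibody and the aCD49d groups with an antibody that blocks the alpha 4 integrin T cells use to leave the blood. Each library pooled the cells of 2 mice, so a clone cannot be assigned to a mouse and the spread between animals cannot be measured. Any barcode with a productive chain was counted as a T cell, and no marker genes were checked because the transcriptomes were not analysed here.

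A beta chain is made when a developing T cell joins 1 V, 1 D and 1 J segment, and bases are trimmed from and added to the ends at both joins. The V segment encodes the loops CDR1 and CDR2, which the cells that use it ordinarily share. The third loop, CDR3, spans the joins and differs from clone to clone. Cells with the same beta and alpha rearrangements usually descend from 1 ancestor, so a V segment takes a large share of cells either by being rearranged often or by being in a few clones that grew.

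Trbv14 (ENSMUSG00000076471.3) lies on the plus strand at chr6:41135145-41135616 of mm10, between Trbv13-3 and Trbv15 and 398 kb before Trbd1. Its second exon codes for the variable domain. The stretch from framework 1 to the end of framework 3 at chr6:41135328-41135600 is shown because nearly all TRBV14 receptors shared it unchanged. CDR1 and then CDR2 are in capitals.
TRBV14 framework 1 to 3: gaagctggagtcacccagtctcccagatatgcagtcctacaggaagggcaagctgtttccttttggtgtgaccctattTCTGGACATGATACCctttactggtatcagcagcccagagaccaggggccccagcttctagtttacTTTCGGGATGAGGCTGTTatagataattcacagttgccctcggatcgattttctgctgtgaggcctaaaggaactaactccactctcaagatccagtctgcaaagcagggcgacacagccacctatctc
The bases that follow at chr6:41135601-41135655 show where joining starts. The first 16 are the germline part of the CDR3, and the capitals mark the heptamer of the recombination signal and the bases at which a 23-base spacer puts its nonamer.
TRBV14 end and signal: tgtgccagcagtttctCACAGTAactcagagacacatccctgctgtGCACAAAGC

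Of the 249 TRBV14 contigs, 242 were identical to the reference over all 273 bases, and CDR1 was identical in all 249. Neither TRBV14's CDR1 nor its CDR2 sequence occurred in a contig called to another V segment. No contig carried a joint V call that named TRBV14.

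TRBV14 was found on 13 of 252 beta-bearing cells in YTBI_Isotype, or 5.16% (exact 95% interval 2.78 to 8.66%). In YTBI_aCD49d it was found on 13 of 562 cells, or 2.31% (1.24 to 3.92%). In ATBI_Isotype it was found on 202 of 1004 cells, or 20.1% (17.7 to 22.7%), and in ATBI_aCD49d on 21 of 1102, or 1.91% (1.18 to 2.90%). ATBI_Isotype held the highest share of the 4 libraries, which is the value TRBV14 was looked at for.

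Counted by clonotype, where each clone counts once whatever its size, the 4 libraries were close together. TRBV14 made up 10 of 220 clonotypes in YTBI_Isotype (4.55%, 2.20 to 8.20%), 13 of 453 in YTBI_aCD49d (2.87%, 1.54 to 4.86%), 16 of 449 in ATBI_Isotype (3.56%, 2.05 to 5.72%) and 15 of 527 in ATBI_aCD49d (2.85%, 1.60 to 4.65%). All 4 intervals overlapped. All intervals here cover counting error only. Those over cells also take each cell as an independent draw, which the cells of 1 clone are not. As 1 clonotype was 0.190 to 0.455% of a library, a difference of a few clonotypes could not be resolved at this depth.

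**Figure D1:**
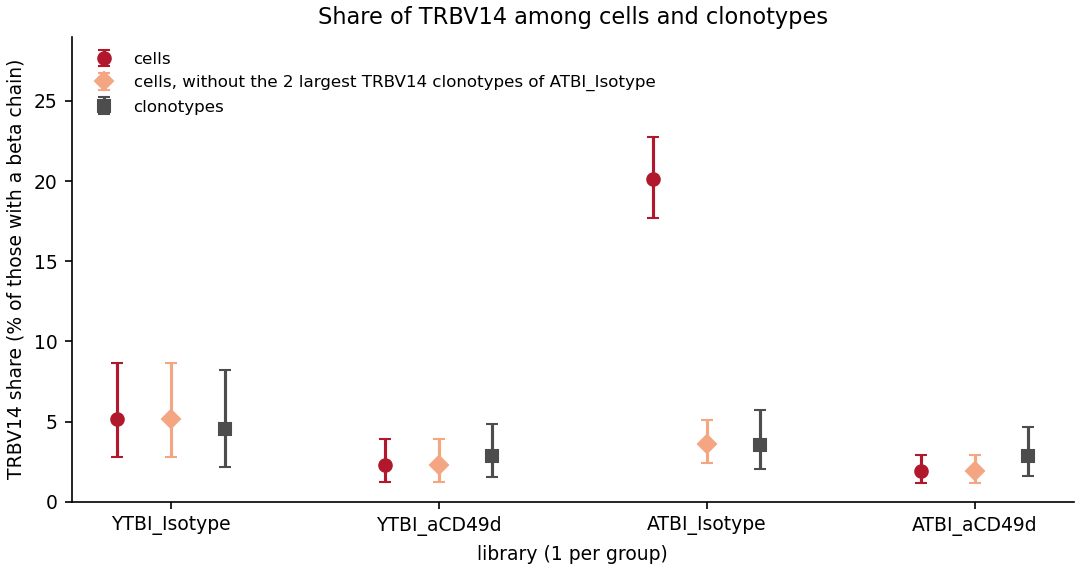
TRBV14 share in percent (vertical axis) in each of the 4 libraries (horizontal axis), over cells, over cells without the 2 largest TRBV14 clonotypes of ATBI_Isotype, and over clonotypes. Bars are exact 95% intervals of counting error. The share of cells in ATBI_Isotype is 20.1%, and without the 2 clonotypes it is 3.61%, next to clonotype shares of 2.85 to 4.55%.

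Between the aged libraries the share of cells was higher under isotype by 18.2 percentage points, and between the isotype libraries it was higher in the aged one by 14.96 points. The young libraries differed by 2.85 points, higher under isotype, and the aCD49d libraries by -0.408 points for aged minus young. These differences are given without an interval, because the cells of 1 clone are not independent of each other. For the share of clonotypes, all 4 Newcombe 95% intervals of the difference included 0. The aged isotype library minus the aged aCD49d library was 0.717 points (-1.64 to 3.21), and the young isotype library minus the young aCD49d library 1.68 points (-1.40 to 5.57). Aged minus young was -0.982 points under isotype (-4.94 to 2.21) and -0.0235 points under aCD49d Ab (-2.37 to 2.22).

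Other V segments also differed between libraries, so the ratios of TRBV14 were read against the 20 TRBV segments that had at least 10 clonotypes in the 4 libraries together. The joint call TRBV12-2+TRBV13-2, for contigs that name both segments, was counted as 1 of the 20, beside TRBV12-2 and TRBV13-2. By clonotypes, 20% of the segments differed 1.5-fold or more in either direction between ATBI_Isotype and ATBI_aCD49d, 35% between the young libraries, 45% between the isotype libraries and 25% between the aCD49d libraries. TRBV14 passed that fold only between the young libraries, at a ratio of 1.58. By cells, 60% of the segments passed it between ATBI_Isotype and ATBI_aCD49d, 35% between the young libraries, 60% between the isotype libraries and 50% between the aCD49d libraries. TRBV14 passed it in the first 3 of these, with ratios of 10.6, 2.23 and 3.90, and had a ratio of 0.824 between the aCD49d libraries.

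TRBV14 ranked first of the 20 segments by cells in ATBI_Isotype and 15th by clonotypes. In the other libraries it ranked 8th, 18th and 15th by cells and 8th, 15th and 16th by clonotypes, in the order YTBI_Isotype, YTBI_aCD49d and ATBI_aCD49d. The median segment held 4.57% of clonotypes and 3.29% of cells in ATBI_Isotype, so TRBV14 was below the median by clonotypes in the library where it led by cells.

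**Figure D2:**
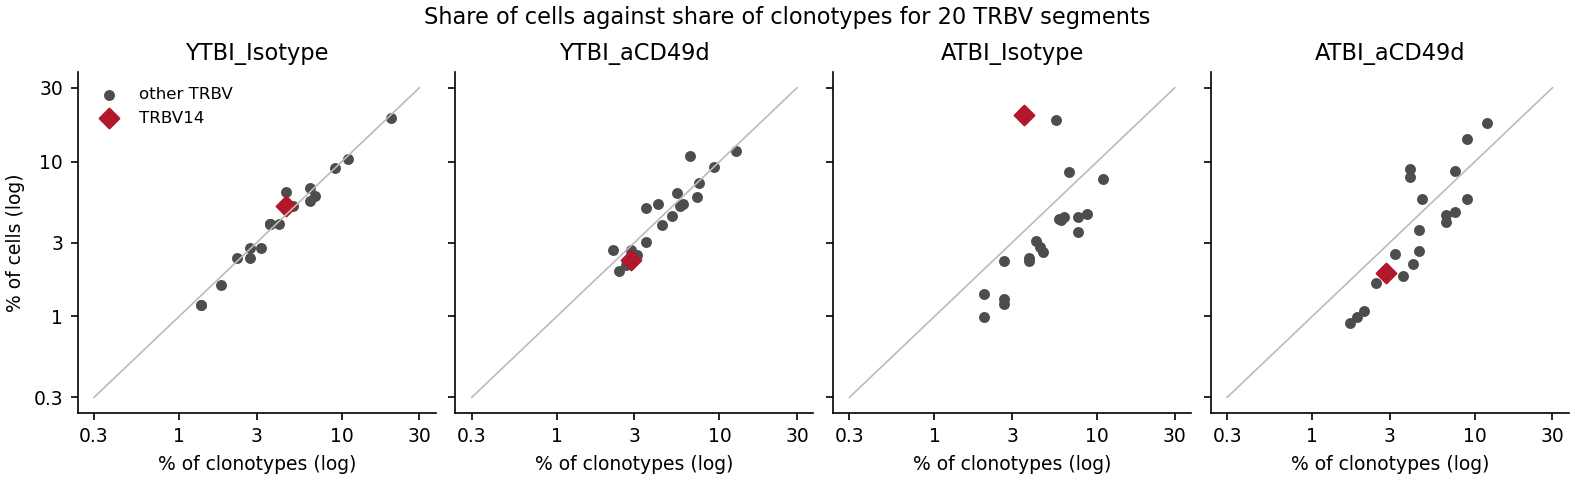
Share of cells (vertical, log scale) against share of clonotypes (horizontal, log scale) for 20 TRBV segments in each library, with TRBV14 as a diamond and equal shares on the grey line. In ATBI_Isotype TRBV14 lies at 3.56% of clonotypes and 20.1% of cells, and in the other 3 libraries it lies close to the line.

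The segments whose share of clonotypes followed that of TRBV14 most closely over the 4 libraries were TRBV10, TRBV26 and TRBV20, with mean absolute differences of 0.785, 0.790 and 0.886 percentage points. In ATBI_Isotype these held 2.29%, 2.79% and 2.29% of cells. TRBV14 was not alone in holding more cells than clonotypes there, since TRBV19 held 18.6% of the cells of ATBI_Isotype on 5.57% of its clonotypes.

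The excess of cells lay in 2 clonotypes. Of the 202 TRBV14 cells in ATBI_Isotype, 99 belonged to the largest TRBV14 clonotype (9.86% of the library, 8.09 to 11.9%) and 73 to the next (7.27%, 5.74 to 9.06%), which ranked 2 and 3 by size in the whole library. Another 15 cells formed 1 clonotype (1.49%, 0.839 to 2.45%), 2 clonotypes had 2 cells each and 11 had a single cell. The 2 largest held 85.1% of the TRBV14 cells, the highest such share among the 20 segments in that library, next to 84.0% for TRBV19 and 61.9% for TRBV1.

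The other libraries held no TRBV14 clone of 10 or more cells. Such clones were rare on any segment in the young libraries, with 0 in YTBI_Isotype and 2 in YTBI_aCD49d. In YTBI_Isotype the largest had 3 cells and the next 2, with 8 single cells. In YTBI_aCD49d all 13 clonotypes were single cells. In ATBI_aCD49d the largest had 6 cells and the next 2, with 13 single cells. By deposited clonotypes, ATBI_aCD49d was not short of large clones. It held 11 beta clonotypes of 10 or more cells, none of them TRBV14, against 9 in ATBI_Isotype, of which 3 were TRBV14. Some of these were alike in sequence. Among the 11, TRBV3 clonotypes of 69, 20 and 12 cells had the same beta CDR3. Among the 9, the 2 largest TRBV14 clonotypes differed at 1 base of it. TRBV14 clonotypes averaged 12.6 cells in ATBI_Isotype and 1.40 in ATBI_aCD49d, and clonotypes of other segments 1.85 and 2.11.

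**Figure D3:**
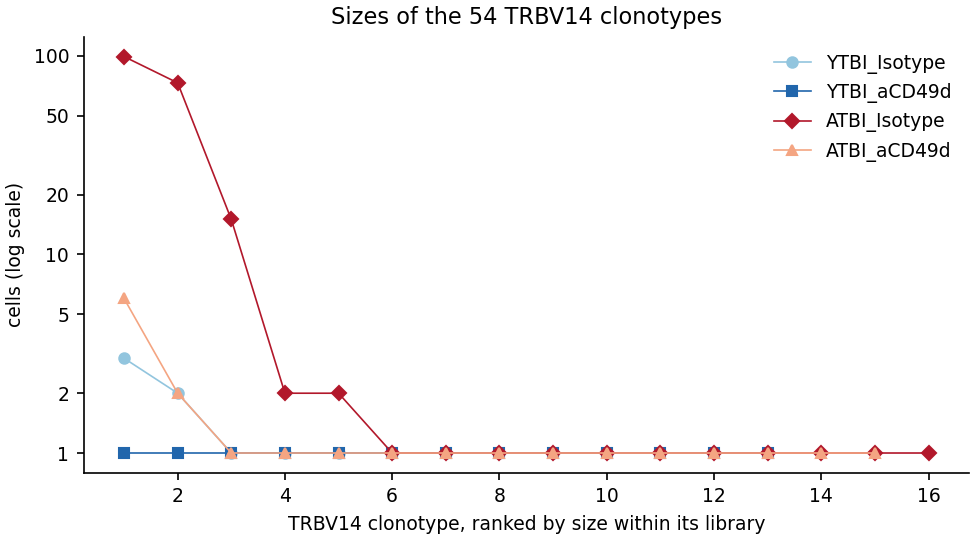
Cells per TRBV14 clonotype (vertical, log scale) ranked by size within each library (horizontal), with 1 line per library. The 3 largest in ATBI_Isotype hold 99, 73 and 15 cells, and no clonotype of the other libraries exceeds 6.

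Without the 2 largest clonotypes, TRBV14 was on 30 of 832 cells in ATBI_Isotype, or 3.61% (2.45 to 5.11%), and ranked 11th of the 20 segments. The difference from ATBI_aCD49d was then 1.70 points, and that from YTBI_Isotype was -1.55 points. Without the 15-cell clone as well, a step added after its size was seen, the share was 1.84% (15 of 817 cells, 1.03 to 3.01%) and the differences were -0.0696 points from ATBI_aCD49d and -3.32 points from YTBI_Isotype, in which no clone was left out.

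The beta CDR3 of the large ATBI_Isotype clones is shown with the bases that match neither the TRBV14 nor the TRBJ germline end in capitals, together with a capital at any base that departs from the germline inside the V end.
TRBV14 clone of 99 cells, TRBJ1-2: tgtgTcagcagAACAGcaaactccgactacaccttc
TRBV14 clone of 73 cells, TRBJ1-2: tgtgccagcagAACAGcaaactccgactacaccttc
TRBV14 clone of 15 cells, TRBJ1-3: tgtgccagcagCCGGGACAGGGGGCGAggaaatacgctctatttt
The first pair differed at 1 base of 36, C5T counted from the first base of the CDR3, at chr6:41135605 in the germline segment. The 73-cell clone carried the germline base, which codes for alanine, and the 99-cell clone coded for valine in its place. None of the other 77 TRBV14 contigs in the 4 libraries carried that base.

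The rest of the rearrangement was the same in the pair. Both had lost 5 bases of the TRBV14 end, had an untrimmed TRBJ1-2 end, and had 5 bases between them with no D call. Both were paired with the same alpha CDR3, of TRAV12-1 (chr14:53538191-53538738) joined to TRAJ22 (chr14:54197248-54197307).
Alpha CDR3 of the 99-cell and 73-cell clones: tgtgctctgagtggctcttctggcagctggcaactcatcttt
The 99-cell clone had it in 67 cells (67.7%) and the 73-cell clone in 44 (60.3%). The same chain was in 2 further cells of ATBI_Isotype, which had no beta chain, and in no cell with another beta chain or of another library. No cell held both beta chains. Together the pair made up 172 cells, 17.1% of the library (14.9 to 19.6%).

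Pairs of clonotypes 1 base apart with the same V, J and length were rare. There were 4 in ATBI_Isotype, 1 in YTBI_Isotype, 2 in YTBI_aCD49d and 1 in ATBI_aCD49d. The TRBV14 pair was 1 of 2 in the 4 libraries that also shared an alpha CDR3. The other, of TRBV13-3 in YTBI_aCD49d, had a single cell on each side. Deposited clonotypes with an identical beta CDR3 also occurred, none of them TRBV14. There were 9 such pairs in ATBI_aCD49d, 4 in ATBI_Isotype and 1 in YTBI_aCD49d, of which 4, 1 and 0 shared an alpha CDR3. A pair of TRBV3 clonotypes in ATBI_aCD49d that did so had 69 and 12 cells.

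The 7 contigs that departed from the reference in the V region all belonged to these clones. In the 99-cell clone 3 cells carried G151A, counted from the first base of framework 1, which changes an aspartic acid of CDR2 to asparagine. In the 73-cell clone 4 cells carried C112T, which changes a proline of framework 2 to serine. Neither base was seen in any other TRBV14 contig. Among 19 clones of 10 or more cells of other segments, 1 held cells that departed from its own commonest V sequence, 4 of its 101 cells, and all other 18 were uniform over their cells. Whether these base differences arose in the cells or in the preparation of the libraries was not tested.

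The 15-cell clone had a different alpha chain, of TRAV9D-3 and TRAJ27, recovered in 12 of its 15 cells.
Alpha CDR3 of the 15-cell clone: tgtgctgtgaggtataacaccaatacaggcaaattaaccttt
The largest clones of the other libraries are shown in the same way for comparison, beta and then alpha. The 2-cell clones of YTBI_Isotype and ATBI_aCD49d had 2 alpha chains each, of which 1 is shown.
YTBI_Isotype, 3 cells, TRBJ2-3: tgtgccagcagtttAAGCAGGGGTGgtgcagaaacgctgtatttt
YTBI_Isotype, 3 cells, TRAV12D-2 and TRAJ9: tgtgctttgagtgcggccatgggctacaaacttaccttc
YTBI_Isotype, 2 cells, TRBJ2-7: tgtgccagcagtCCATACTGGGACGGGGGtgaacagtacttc
YTBI_Isotype, 2 cells, TRAV9D-3 and TRAJ26: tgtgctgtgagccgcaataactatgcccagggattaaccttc
ATBI_aCD49d, 6 cells, TRBJ2-1: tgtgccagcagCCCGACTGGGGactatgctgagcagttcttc
ATBI_aCD49d, 6 cells, TRAV6-6 and TRAJ33: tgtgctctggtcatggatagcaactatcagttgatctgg
ATBI_aCD49d, 2 cells, TRBJ2-5: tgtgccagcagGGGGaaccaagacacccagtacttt
ATBI_aCD49d, 2 cells, TRAV5-4 and TRAJ50: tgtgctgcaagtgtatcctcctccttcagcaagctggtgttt
Over all 54 clonotypes, 0 to 7 bases of the 16 germline CDR3 bases of TRBV14 were missing (median 3.5), 0 to 8 bases of the J end (median 2), and 1 to 19 bases lay between (median 11). The large pair, with 5 bases between, was among the 5 clonotypes with 5 or fewer.

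The J segments supply the end of CDR3. TRBV14 was joined to all 12 TRBJ segments that occurred with it or with any other V segment. Over the 4 libraries TRBJ2-7 was the partner of 16 of 54 TRBV14 clonotypes (29.6%), against 19.0% of the 1595 other beta clonotypes, and TRBJ2-5 was the partner of 8 (14.8% against 10.47%). TRBJ2-1 was the partner of 2 (3.70% against 11.0%). By cells the order was different, since TRBJ1-2 was on 173 of the 249 TRBV14 cells, 172 of them in the large pair, while only 3 TRBV14 clonotypes used it.

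TRBJ2-7 led in 3 of the libraries, with 5 of 10 clonotypes in YTBI_Isotype, 4 of 16 in ATBI_Isotype and 4 of 15 in ATBI_aCD49d. Other clonotypes used TRBJ2-7 at 15.7%, 20.3% and 16.8% in these libraries, and at 21.8% in YTBI_aCD49d. TRBV14 was above them by 34.3, 4.68, 9.87 and 1.26 points in the same order, so the gap was widest in YTBI_Isotype. In YTBI_Isotype TRBJ2-3 followed with 2, and no other segment had more than 1. In YTBI_aCD49d TRBJ2-5 led with 4 of 13, followed by TRBJ2-4 and TRBJ2-7 with 3 each. In ATBI_Isotype TRBJ1-1, TRBJ1-2, TRBJ1-3, TRBJ1-4 and TRBJ2-5 had 2 each, and in ATBI_aCD49d TRBJ1-1, TRBJ2-3 and TRBJ2-5 had 2 each.

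**Figure D4:**
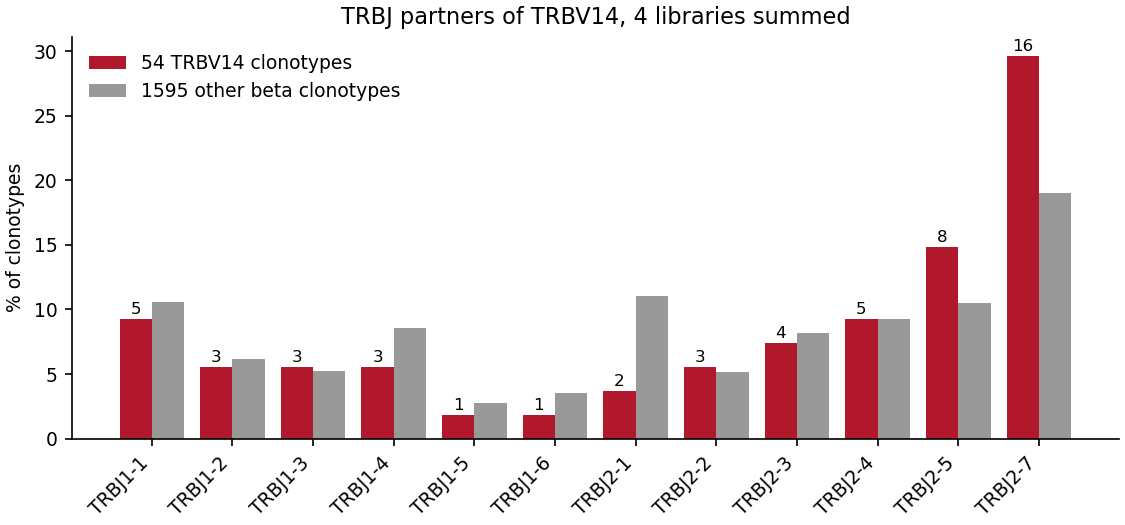
Percent of clonotypes (vertical) joined to each TRBJ segment (horizontal) for TRBV14 and for all other beta clonotypes, summed over 4 libraries, with the number of TRBV14 clonotypes above its bar. TRBJ2-7 is the commonest partner in both, at 29.6% for TRBV14 and 19.0% for the others.

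The TRBJ1 cluster lies with Trbd1 ahead of Trbd2 and TRBJ2, so a TRBJ1 chain ordinarily uses Trbd1. TRBJ1 segments were used by 1 of 10 TRBV14 clonotypes in YTBI_Isotype (10%, others 31.4%), 2 of 13 in YTBI_aCD49d (15.4%, others 32.5%), 9 of 16 in ATBI_Isotype (56.3%, others 41.8%) and 4 of 15 in ATBI_aCD49d (26.7%, others 38.7%). TRBV14 was lower than the rest in 3 libraries and higher in ATBI_Isotype, and the interval of the difference included 0 in each. The mean difference was -9.03 points ± 16.1 (SD, n = 4 libraries), with p = 0.375 in an exact two-sided sign-flip permutation test, in which the smallest possible p with 4 libraries is 2 of 16 sign patterns. The mean was -16.8 points without ATBI_Isotype and -4.89 points without YTBI_Isotype. All 16 TRBV14 clonotypes with a TRBJ1 segment had the constant gene TRBC1 and all 38 with a TRBJ2 segment had TRBC2.

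A D segment was called in 14 of the 54 TRBV14 clonotypes. TRBD1 was called in 3 of the 16 with a TRBJ1 segment and in 9 of the 38 with a TRBJ2 segment, and TRBD2 in 2 of the latter. Among the other clonotypes with a TRBJ2 segment, TRBD1 and TRBD2 were called about equally, in 135 and 133 of 1007. Any D call was made for 40% of TRBV14 clonotypes in YTBI_Isotype, 23.1% in YTBI_aCD49d and, in the aged libraries, 25% under isotype and 20% under aCD49d Ab, next to 23.05 to 26.2% for the others. The sign-flip permutation test gave an exact p of 1 over the 4 libraries for this share.

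The CDR3 of TRBV14 chains averaged 13.9 ± 0.738 residues (SD, n = 10 clonotypes) in YTBI_Isotype and 13.4 ± 1.04 (n = 13) in YTBI_aCD49d, and 13.75 ± 1.24 (n = 16) in ATBI_Isotype and 13.9 ± 1.13 (n = 15) in ATBI_aCD49d, and the means of other chains were 13.97 to 14.08. TRBV14 minus other chains was below 0 in 4 of 4 libraries, at -0.295 residues on average (SD 0.214). Acidic residues per CDR3 were also lower in 4 of 4 libraries, with a mean difference of -0.175 (SD 0.109). Both gave the smallest p that the exact sign-flip permutation test allows, 2 of 16 sign patterns, and an adjusted p of 0.438 after Benjamini-Hochberg adjustment over the 7 measures tested. The shorter mean in ATBI_Isotype rested on the large pair, whose CDR3 has 12 residues, since without it the difference there was 0.0323 residues in the other direction. Lengths of 13 to 15 residues made up 47 of 54 TRBV14 clonotypes (87.0%) and 73.0% of the others.

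Basic residues, lysine and arginine, numbered 0.600 per TRBV14 CDR3 in YTBI_Isotype and 1.15 in YTBI_aCD49d, and 1.13 in ATBI_Isotype and 0.467 in ATBI_aCD49d, against 0.525 to 0.661 in other chains. TRBV14 was higher in 3 of the 4 libraries, by 0.274 on average over all 4 (SD 0.325), with p = 0.25 in the exact permutation test and 0.583 after adjustment.

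**Figure D5:**
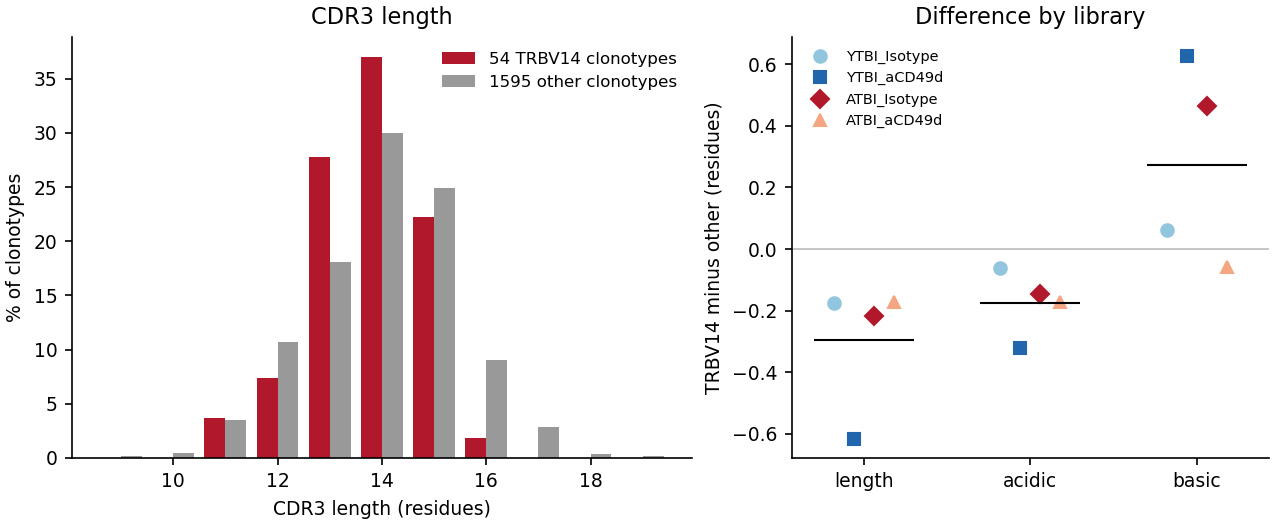
Left, percent of clonotypes (vertical) at each CDR3 length in residues (horizontal) for TRBV14 and for other beta clonotypes. Right, TRBV14 minus other chains in residues for mean length, acidic and basic residues in each library, with the mean of 4 libraries as a bar. Length and acidic residues are below 0 in all 4 libraries, and basic residues in ATBI_aCD49d only.

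A run of arginine, aspartic acid, arginine and glycine recurred in TRBV14 chains and was singled out after it had been seen. It was in 6 of 54 TRBV14 clonotypes (11.1%), namely 1 in YTBI_Isotype, 4 in YTBI_aCD49d, the 15-cell clone of ATBI_Isotype and none in ATBI_aCD49d, and in 14 of 1595 others (0.878%). The segment with the next highest share was TRBV17, with 2 of 40 clonotypes (5%). The 6 sequences are shown with the bases that match germline Trbd1 (chr6:41533201-41533212) in capitals.
YTBI_Isotype, 1 cell, TRBJ2-7: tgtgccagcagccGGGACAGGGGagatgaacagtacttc
YTBI_aCD49d, 1 cell, TRBJ2-5, first: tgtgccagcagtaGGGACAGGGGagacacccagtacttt
YTBI_aCD49d, 1 cell, TRBJ2-5, second: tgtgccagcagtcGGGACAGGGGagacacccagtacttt
YTBI_aCD49d, 1 cell, TRBJ2-7, first: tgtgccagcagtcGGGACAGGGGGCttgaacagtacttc
YTBI_aCD49d, 1 cell, TRBJ2-7, second: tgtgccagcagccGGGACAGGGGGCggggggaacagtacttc
ATBI_Isotype, 15 cells, TRBJ1-3: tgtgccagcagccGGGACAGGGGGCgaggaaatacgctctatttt
Each holds 10 or all 12 bases of Trbd1 in 1 reading frame.

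The first 3 of these also had nearly the same alpha chain, TRAV7N-6 joined to TRAJ22, shown with the bases at which the 3 differ in capitals.
YTBI_Isotype, alpha: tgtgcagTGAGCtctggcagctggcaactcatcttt
YTBI_aCD49d, alpha of the first: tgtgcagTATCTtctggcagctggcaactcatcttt
YTBI_aCD49d, alpha of the second: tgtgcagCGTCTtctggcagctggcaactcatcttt
The first and second of these lines code for the same 12 residues although they differ at 4 bases and come from different libraries, and the third differs from them by 1 residue. The beta CDR3 of the pair in YTBI_aCD49d differed at 1 base, A13C counted from the first base of the CDR3, and coded for the same 13 residues, 1 residue away from the YTBI_Isotype chain. Only 5 clonotypes in the 4 libraries joined TRAV7N-6 to TRAJ22, and 3 of them were these. Their alpha CDR3 residues were in no other clonotype. Each of the 3 was a single cell, so nothing is known of the precision of the calls beyond their beta UMI counts of 7, 3 and 9.

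No TRBV14 beta CDR3, by nucleotides or by residues, was found in more than 1 library. Among other chains 1 of 1623 distinct beta rearrangements was shared by nucleotides and 6 of 1611 by residues. A single cell barcode occurred in more than 1 library, it held no TRBV14 chain, and its beta chains differed between the libraries.

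The alpha chain contributes the other side of the binding site. Among the 48 TRBV14 clonotypes with an alpha chain, the commonest TRAV families were TRAV12 (9 clonotypes, 18.8%), TRAV7 (8, 16.7%), TRAV9 (6, 12.5%), TRAV13 (5, 10.4%) and TRAV6 (5, 10.4%). Among 1285 other clonotypes with an alpha chain these families were found in 12.1%, 12.7%, 8.79%, 8.33% and 12.5%. TRAV12 was found in 4 of 15 TRBV14 clonotypes in ATBI_Isotype, the large pair among them, and in none of 12 in YTBI_aCD49d. TRAV7 was found in 4 of 12 in YTBI_aCD49d, the near-identical pair with TRAV7N-6 above among them, and in 1 of 15 in ATBI_Isotype. Other clonotypes of these libraries had TRAV7 in 13.6% and 12.6%.

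TRAJ22 was the commonest alpha J partner and was singled out after it had been seen. It was found in 9 of the 48 TRBV14 clonotypes (18.8%) and in 88 of the 1285 others (6.85%). It was present in each library, with 2 of 9 TRBV14 clonotypes in YTBI_Isotype, 2 of 12 in YTBI_aCD49d, 4 of 15 in ATBI_Isotype and 1 of 12 in ATBI_aCD49d, where the other clonotypes had 8.62%, 4.26%, 8.83% and 6.79%. Of the 9, 2 are the large pair and 3 the near-identical receptors above, so the clonotypes are not independent of each other.

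An alpha chain was recovered in 12 of 13 TRBV14 cells of YTBI_Isotype (92.3%, others 81.6%), 12 of 13 of YTBI_aCD49d (92.3%, others 77.4%), 136 of 202 of ATBI_Isotype (67.3%, others 66.8%) and 15 of 21 of ATBI_aCD49d (71.4%, others 83.3%). The exact sign-flip permutation test gave p = 0.625 over the 4, with a mean difference of 3.55 points. Of the 202 cells, 172 belonged to the 2 largest clones, and without them the share in ATBI_Isotype was 83.3% and the mean difference 7.55 points, with an exact permutation p of 0.375. Beta chains of TRBV14 cells were supported by a median of 13 UMIs (others 11) in YTBI_Isotype and 9 (others 9) in YTBI_aCD49d, and by 6 (others 7) in ATBI_Isotype and 10 (others 10) in ATBI_aCD49d, with an exact permutation p of 1. The 99-cell and 73-cell clones had medians of 5 and 6 UMIs per cell, with ranges of 1 to 15 and 1 to 14, and 1 cell in each rested on a single UMI. Cells of other clones of 10 or more cells in ATBI_Isotype had a median of 5.50 UMIs and an alpha chain in 57.9%.

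In each aged library 1 TRBV14 cell carried a second beta chain, and whether these barcodes held 2 cells was not tested. The deposited evidence columns named an invariant NKT or MAIT feature for no other TRBV14 clonotype than these 2, and in both it was on the beta gene alone.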

How the data were processed

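Single-cell TCR sequencing of 4 libraries was analysed. The authors prepared them with 10x Genomics 5' immune profiling and ran Cell Ranger 7.2.0 with mm10. The deposited contig tables give UMI and read counts per assembled chain, and the deposited clonotype tables give each clonotype's cells as a count and as a fraction. Only productive, full-length chains of called cells are in them. The members, lists and measures were chosen with earlier results of these data known.

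Each cell kept its deposited clonotype, a clonotype's values came from its TRBV14 contig or otherwise the beta contig with most UMIs, and shares were taken over cells or clonotypes with a beta chain (252 and 562 cells in the young isotype and aCD49d libraries, 1004 and 1102 in the aged). Each group had 1 library, and no test between groups, treatments or ages was made. No doublet caller was run, and leaving out cells with more than 1 beta chain was an alternative. Counting error was given as Clopper-Pearson 95% intervals (exact) for shares and Newcombe intervals for differences between shares of clonotypes, and for differences of TRBV14 from other chains in shares of clonotypes within a library. TRBV14 and other chains were compared within libraries with the exact sign-flip permutation test over 4 libraries. Its p was checked on 1 known example, and the recovery of a difference in CDR3 length on simulated clonotypes. UMIs rather than reads were used as depth. Germline bases and gene positions are from GRCm38 (mm10) and GENCODE vM21, and V and J ends were matched base by base from the ends of the CDR3, bridging 1 mismatch followed by 5 matches.

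Named by rule were every TRBJ partner with the 3 most frequent per library, the 5 commonest TRAV families and the 3 TRBV segments nearest in clonotype share. Every TRBV14 clonotype of 10 or more cells and the 2 largest of each library were also named by rule. None was named by size in YTBI_aCD49d, where all were single cells. Other segments, such as TRBV19, TRBV1, TRBV17 and TRBV13-3, are named for comparison. TRAJ22 and the single-cell clonotypes with the recurring run were singled out after they had been seen. Alternatives were other denominators, cells, UMI minimums, clonotype definitions, folds and left-out clones or libraries. The transcriptomes were not analysed here. Scripts ran in Python 3.11.15 with scipy 1.17.1, pandas 2.3.3 and numpy 2.4.6, and plots were drawn with matplotlib 3.10.9.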

Additional observations from a re-analysis of the deposited data

Results flagged for a closer look

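The share of TRBV14 cells that lay in clonotypes of 2 or more cells, less the same share of cells with other beta chains, was 19.6 percentage points in YTBI_Isotype and 38.6 points in ATBI_Isotype, and -26.8 points in YTBI_aCD49d and -21.6 points in ATBI_aCD49d. It stood out because both isotype libraries were above 0 and both aCD49d libraries below. TRBV14 was looked at for its high share of cells in ATBI_Isotype, so the value there was high through that choice. The 2 libraries of a treatment differ in age and are not replicates, and no difference between treatments was tested. How many other segments split in this way was not counted. It rests on 5 of 13, 191 of 202, 0 of 13 and 8 of 21 TRBV14 cells in YTBI_Isotype, ATBI_Isotype, YTBI_aCD49d and ATBI_aCD49d, and without the 2 largest clonotypes the value in ATBI_Isotype was 7.35 points. At the 252 cells of the smallest library, the expected values were 19.6, 51.4, -20.8 and -26.9 points in the same order.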

How the results depend on the processing

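Leaving out the 2 largest TRBV14 clonotypes of ATBI_Isotype moved its share of cells to 3.61%, the difference from ATBI_aCD49d to 1.70 points and that from YTBI_Isotype to -1.55 points, the reverse of the full data, and turned the mean difference from other chains in cells of clonotypes of 2 or more cells from 2.46 to -5.34 points and that in alpha recovery from 3.55 to 7.55 points. Leaving out the 15-cell clone too, chosen after seeing the data, gave 1.84%, -0.0696 points and -3.32 points. The other denominators, cells, UMI minimum and clonotype definitions kept all shares within their main intervals. By clonotypes, the aCD49d difference of -0.0235 points became 0.189 with 2 or more UMIs and -0.654 in cells with both chains. The difference between the aged libraries rose from 0.717 to 1.87 points in cells with both chains. The intervals of these differences still included 0. With each library left out in turn, the mean difference from other chains ran from -9.57 to 12.2 points for cells in clonotypes of 2 or more cells, -1.79 to 3.83 points for a D call, -0.333 to 0.667 UMIs, and -0.236 to 8.70 points for alpha recovery, changing sign in each. That for the TRBJ1 share of clonotypes ran from -16.8 to -4.89 points. Per CDR3, the differences kept their sign, from -0.336 to -0.189 residues in length, 0.156 to 0.384 basic residues and -0.213 to -0.126 acidic residues. At 2-fold in place of 1.5-fold, 2 of 20 segments differed in each comparison by clonotypes, and TRBV14 no longer passed in any. By cells 10 differed between the aged, 3 between the young, 9 between the isotype and 6 between the aCD49d libraries. TRBV14 passed by cells in all but the last of these. With 10 to 16 TRBV14 clonotypes per library, differences of a few percentage points were within counting error.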
